A study of Mus musculus with 2 samples.

Results

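Complex I, the NADH:ubiquinone oxidoreductase, was followed through 36 of its nuclear-encoded subunit genes, chosen by gene name, with no threshold on their values. These genes and the lists set beside them were chosen with earlier results of these data known. Spots under these names were present for 35 of the 36 genes, and all 35 gave at least 1 probe well above background on both arrays, out of 20254 genes measured in this way. The remaining gene, Ndufv3, was found on the array under its former name 1500032D16Rik and is described separately. The RNA came from subcutaneous tumours of Panc02, a mouse pancreatic carcinoma line, grown in C57BL/6 mice that had been assigned at random to standard or enriched housing from 3 weeks of age. All animals received the same tumour cells and stayed in their housing for a further 5 weeks. Enriched housing differs from standard caging in offering more stimulation; it was the only factor that differed between the groups by label. Each group is 1 pool of RNA from the tumours of 6 mice, called here the standard and the enriched pool and hybridised to 1 one-colour Agilent array, so the values carry no spread between mice, no test between the housings was possible, and every difference describes this pair of pools. C57BL/6 hosts keep their own stroma, blood and neighbouring tissue, and whole-tumour RNA holds transcripts of all of these.

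Complex I takes electrons from NADH into the respiratory chain of the inner mitochondrial membrane and uses their passage to pump protons. It is L-shaped. The N module, at the tip of the arm in the matrix, oxidises NADH on a flavin; the Q module, below it, hands the electrons along iron-sulphur clusters to ubiquinone; and the P module, in the membrane, moves the protons. Core subunits, which also occur in the bacterial enzyme, carry the cofactors and the proton channels, while accessory subunits surround and stabilise them. The core subunits of the membrane arm are encoded by mitochondrial DNA and were not analysed here.

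Every measured subunit was lower in the enriched pool. All 35 lay below 0, where 48.0% of all measured genes did, and 29 of the 35 were at least 2-fold lower, where 9.57% of all measured genes were. None was at least 2-fold higher, where 5.77% of all measured genes were. A difference here is the enriched minus the standard environment value of a gene's level, and a level is log2 of the processed spot intensity after the 75th percentile of its own array was subtracted. The median difference of the 35 subunits was -1.47, or 2.78-fold, against 0.03 over all measured genes. Differences ran from -2.09 in Ndufs7 to -0.54 in Ndufa3. The 47 probes of these genes together took 1.80% of the summed intensity of measured probes in the standard against 0.765% in the enriched pool. The error model of the scanner software gave each difference a technical error of 0.20 to 0.22. This error was nearly the same for every gene and does not include the scatter between probes. The differences of separate probes for the same gene scattered with a median SD of 0.18 over all genes. Members closer than this in the order could not be told apart, whereas the top and the bottom of the order lay further apart than the technical error. Neither error covers variation between animals.

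**Figure D1:**
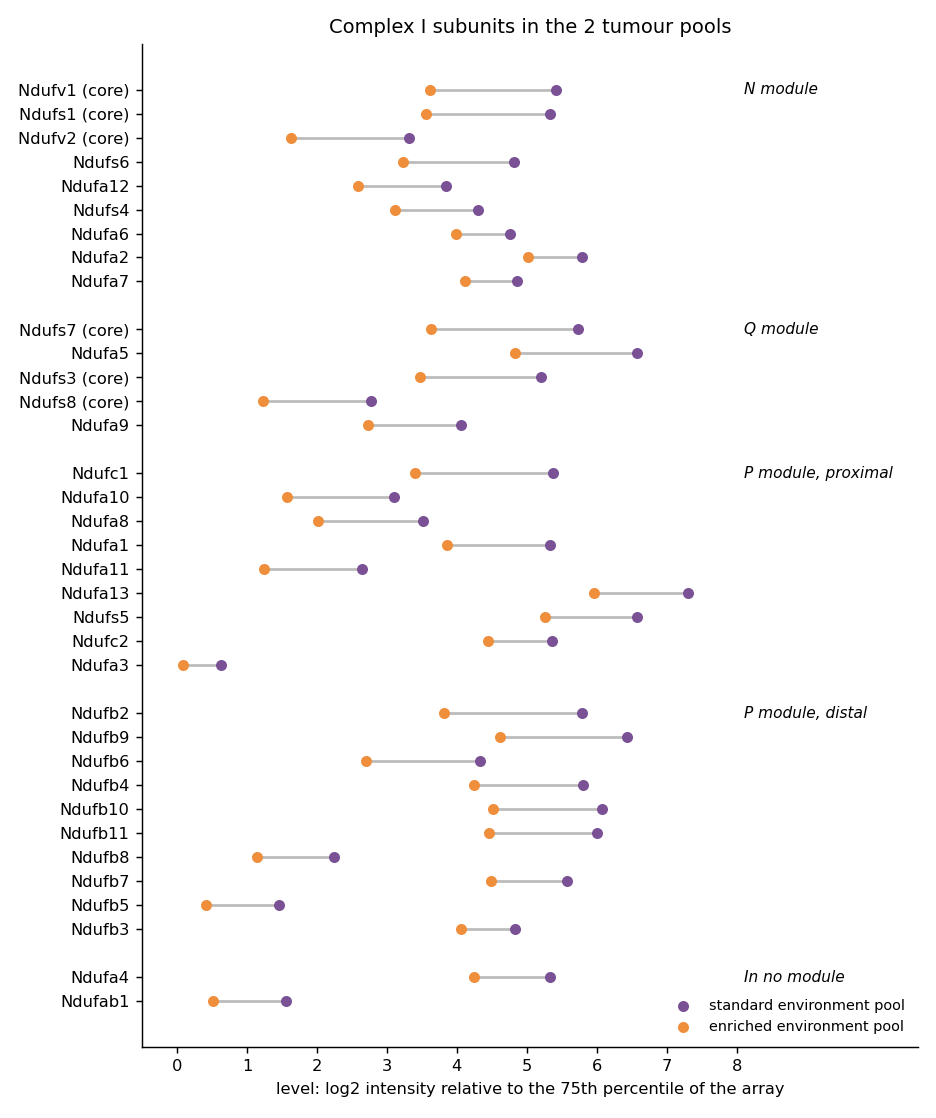
Level of each measured complex I subunit in the standard (purple) and enriched (orange) pool, as log2 intensity relative to the array's 75th percentile, grouped by module; each point is 1 array and probes of a gene are averaged. In all 35 genes the orange point lies to the left of the purple one; positions of different genes are not comparable, since probes differ in how well they bind.

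The assembled matrix arm begins with the N module. Ndufv1, which binds the flavin and NADH, went from an intensity of 32313 in the standard to 12119 in the enriched pool, which is -1.80 or 3.48-fold. Ndufs1, the largest core subunit and holder of several iron-sulphur clusters, went from 30284 to 11573, a difference of -1.77. Ndufv2, the third core subunit of the module, went from 7494 to 3050, a difference of -1.68. These core subunits therefore lay within a narrow range, and each was lower by 3.21-fold or more. A second Ndufs1 probe, designed on a cDNA and placed on the opposite strand, was not well above background on either array and was left out.

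The accessory subunits of the N module were more spread out. Ndufs6, a zinc-binding subunit, differed by -1.59 over 3 probes (SD between probes 0.04). Ndufa12, a relative of the assembly factor Ndufaf2, differed by -1.25 over 3 probes (SD between probes 0.04), although its probes lie at 93758922 to 93759001 and at 93780198 to 93780257 on chromosome 10 of the mm7 build. Ndufs4, which holds the N module on the rest of the enzyme, differed by -1.18, from an intensity of 14839 to 8547. The other 3 subunits did not reach 2-fold. Ndufa2, with a thioredoxin-like fold, went from 41757 to 31930, a difference of -0.77 or 1.71-fold. Ndufa6, which binds the mitochondrial acyl carrier protein, went from 20327 to 15536, also a difference of -0.77. Ndufa7 had differences of -0.85 and -0.66 in its probes and -0.75 on average. The median of the 6 accessory subunits was -0.98 and that of the 3 core subunits -1.77. No accessory subunit of this module was as low as any of its core subunits, but Ndufs6 lay within the technical error of Ndufv2. With dim probes kept, the core subunit Ndufs1 was at -1.15, above Ndufs6 at -1.59.

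Ndufv3, the small accessory subunit next to the flavin subunit, is spliced into a short and a long protein in mammals. It had 3 probes under its former name, matched through its RefSeq accession, and they differed among themselves. The probe from 29712547 to 29712606 on chromosome 17 (mm7) went from an intensity of 4877 to 2701, a difference of -1.24. The probes from 29718668 to 29718727 and from 29719125 to 29719184 differed by -0.39 and -0.27, from intensities of 259 and 452 in the standard pool. All 3 lay below 0, and the average was -0.63. Which protein form each probe reads was not determined here.

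The Q module held the lowest value of the complex. Ndufs7, which carries the last iron-sulphur cluster before ubiquinone, went from an intensity of 39817 in the standard to 12193 in the enriched pool, which is -2.09 or 4.27-fold. Ndufs3, a core subunit without a cluster, went from 27806 to 10956, a difference of -1.73. Ndufs8, a ferredoxin-like core subunit, went from 5132 to 2296, a difference of -1.55. The accessory subunit Ndufa5 was close to these at -1.74, from 71497 to 27951. Ndufa9, related to short-chain dehydrogenases and placed where the matrix arm meets the membrane, was the highest of the module at -1.32. All 5 genes were at least 2-fold lower, and their median was -1.73.

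In the proximal part of the membrane arm 7 of 9 subunits were at least 2-fold lower, and the median was -1.41. Ndufc1, a small membrane-spanning subunit, was lowest at -1.97, with its 2 probes at -2.01 and -1.93. Its partner at the base of the arm, Ndufc2, was among the highest at -0.92, from an intensity of 31006 to 21460. Ndufa10, which resembles a nucleoside kinase, differed by -1.53, and the X-linked Ndufa1 by -1.47, with probes at -1.53 and -1.42. Ndufa8 and Ndufs5, proteins of the intermembrane space with disulphide-bonded helices, differed by -1.51 and -1.32. Ndufa11, a relative of the Tim17 import proteins, differed by -1.41 and Ndufa13, also known as GRIM-19, by -1.34. Ndufa3 was the highest member on average, at -0.54, as the average of probes that went in opposite directions. The RefSeq-based probe differed by -1.39, from 26261 to 13095, and a probe designed on a testis cDNA by 0.31, from an intensity of 51.3 to 83.1.

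In the distal part 9 of 10 subunits were at least 2-fold lower, and the median was -1.55. Ndufb2 went from an intensity of 41657 to 13903, a difference of -1.97, and Ndufb9, a protein of the LYR family like Ndufa6, from 64870 to 24147, a difference of -1.81. Ndufb6 at -1.63, Ndufb4 at -1.56, Ndufb10 at -1.56 and the X-linked Ndufb11 at -1.55 formed a close group. Ndufb7, which like Ndufb10 folds in the intermembrane space, differed by -1.09 and Ndufb5 by -1.05. Ndufb3 was the exception at -0.77, from 21479 to 16475. Ndufb8 stood at -1.09 as an average of probes that did not match. Its RefSeq-based probe, from 44444238 to 44446582 on chromosome 19 (mm7), went from 48073 to 13930 and at -2.17 was lower than any member's average, while a probe designed on a placenta cDNA, from 44442601 to 44442660, differed by -0.01 at intensities of 262 and 340. Whether a probe lies in an exon, an intron or a UTR was not analysed here, since no annotation of the mm7 build was used.

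**Figure D2:**
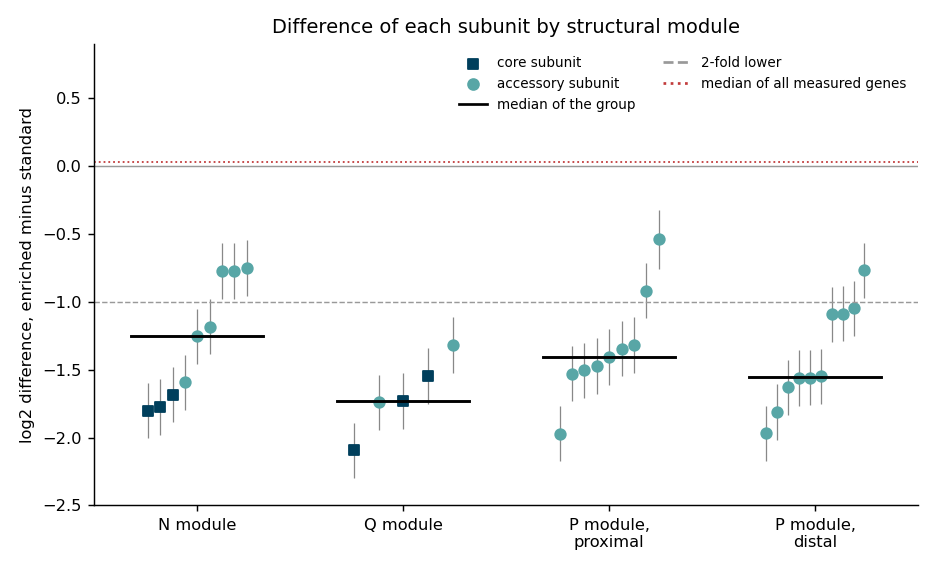
Log2 difference (enriched minus standard pool) of each subunit by module, with core subunits as squares, accessory subunits as circles, group medians as black bars, and error bars showing the scanner software's technical error of the difference; the dashed line marks 2-fold lower and the dotted line the median of all measured genes. All points lie below 0, and core subunits lie between -2.09 and -1.55. The error bars are nearly equal and leave out the scatter between probes, whose SD was 1.53 in Ndufb8 and 1.20 in Ndufa3.

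Ndufab1 and Ndufa4 were put in no module. Ndufab1 is the mitochondrial acyl carrier protein, which sits at separate places on both arms and also serves fatty acid synthesis. It averaged -1.05, with probes at -1.85, -1.10 and -0.20 that had intensities of 18563, 815 and 719 in the standard pool; another probe, designed on a cDNA, was not well above background on either array. Ndufa4, named as a complex I subunit but now counted with cytochrome c oxidase, went from 30461 to 18628, a difference of -1.10, and without it the median of the complex was -1.49. Of the 9 members with several measured probes, 6 had an SD between probes of at most 0.14. The other 3, Ndufb8, Ndufa3 and Ndufab1, had SDs of 1.53, 1.20 and 0.82, and in each of these the brightest probe was also the one with the lowest difference. With the brightest probe in place of the average, 30 members were at least 2-fold lower, where 9.91% of all genes were, and Ndufa3 was at -1.39.

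**Figure D3:**
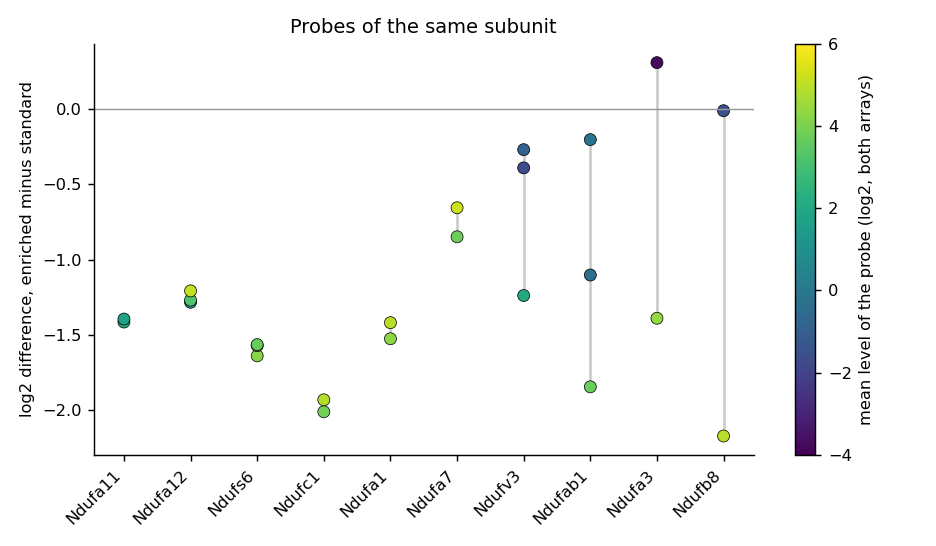
Log2 difference (enriched minus standard pool) of every probe well above background on both arrays, for the subunits with several such probes, coloured by the probe's mean level. Probes lie close together in Ndufa11, Ndufa12, Ndufs6, Ndufc1, Ndufa1 and Ndufa7 and far apart in Ndufv3, Ndufab1, Ndufa3 and Ndufb8, where the dimmer (darker) probes lie nearer to or above 0.

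Set side by side, the medians were -1.73 for the Q module, -1.47 for the P module and -1.25 for the N module, with 5 of 5, 16 of 19 and 6 of 9 subunits at least 2-fold lower. This order was the same with each of 9 other ways of processing the same arrays, but it turned on where the modules were drawn. Scaling by the median, or by the 75th percentile of detected probes, moves all differences alike and could not change the order. Without Ndufa6, Ndufa7 and Ndufa12, which lie toward the Q module, the N module had a median of -1.64, lower than the P module. With 1 array per housing the differences between modules were not tested. The core subunits lay in a narrower band than the accessory subunits, but they were 6 genes against 28, and a range widens with the number of genes. All 6 core genes reached 2-fold, and their median was -1.75 and a range from -2.09 to -1.55, whereas 22 of 28 accessory genes reached 2-fold, and their median was -1.33 and a range from -1.97 to -0.54. Of the accessory genes 9 were lower than the highest of these core genes, so the classes overlapped. All 6 members that did not reach 2-fold, Ndufa2, Ndufa3, Ndufa6, Ndufa7, Ndufb3 and Ndufc2, were accessory subunits. So were 28 of the 34 measured members other than Ndufa4. Across the 35 genes, the difference correlated weakly with the mean level of both arrays (Pearson's r = -0.26, Spearman's rho = -0.22); the points share the arrays and the scaling.

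The letters around the annotated starts of the subunit genes were read to see what genes of 1 enzyme share there. RefSeq promoter sequences on GRCm38.p6, which run from 250 bases before to 50 bases after the annotated start, were held for 33 of the 36 genes, with 35 promoters among them. They had a median GC content of 59.0% and a median ratio of observed to expected CpG of 0.782, against 52.7% and 0.384 over all 32851 promoters of the table. The YY1 motif, whose letters stand in capitals in the first sequences printed here, occurred on either strand in 4 of the 35, those of Ndufs7, Ndufs6, Ndufa9 and Ndufs4, and in 0.633% of all promoters. The ETS motif bound by GABP, CCGGAAG, occurred in 4 of the 35, those of Ndufb6, Ndufb7, Ndufs3 and Ndufs8, and in 8.86% of all promoters. The NRF1 motif, in capitals in the Ndufa11 sequence, reads the same on both strands and was in the Ndufa11 promoter and in 0.971% of all promoters. The ERR motif TCAAGGTCA was in none of the 35 and in 0.423% of all promoters. GABP, NRF1, YY1 and ERR proteins are known regulators of nuclear genes for mitochondrial respiration. No motif contains another, a match is not a binding site, and neither binding nor methylation was measured.

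The 4 YY1 matches are shown as a stretch that several of the subunit genes have in common, and 1 NRF1 and 1 ETS match as examples of the other motifs found, each with up to 25 bases on either side, with the motif in capitals and the sequence on the strand of the gene. The YY1 matches begin 25 to 36 bases into the transcript, and the windows of these 4 end where the promoter sequence ends. Each YY1 match contains the letters ATG, and whether these are the start codon was not analysed.
Ndufs7, chr10:80249448-80249498, plus strand: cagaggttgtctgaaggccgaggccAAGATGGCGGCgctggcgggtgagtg
Ndufs6, chr13:73328433-73328474, minus strand: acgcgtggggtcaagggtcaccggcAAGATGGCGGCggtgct
Ndufa9, chr6:126849095-126849140, minus strand: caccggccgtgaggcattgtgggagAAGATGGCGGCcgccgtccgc
Ndufs4, chr13:114388045-114388084, minus strand: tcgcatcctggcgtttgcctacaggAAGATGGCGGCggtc
Ndufa11 (NRF1), chr17:56717677-56717736, plus strand: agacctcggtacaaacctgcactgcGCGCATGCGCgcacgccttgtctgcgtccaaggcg
Ndufs3 (ETS), chr2:90904717-90904773, minus strand: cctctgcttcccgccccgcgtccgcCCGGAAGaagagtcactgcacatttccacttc
The genes with a YY1 match differed by -2.09, -1.59, -1.32 and -1.18 in the order printed, which spans much of the range of the complex. Ndufa11 differed by -1.41 and Ndufs3, for which the upstream of 2 ETS matches is shown, by -1.73.

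Whole promoters are given for Ndufs7, the lowest member, and for Ndufa6, a member with a difference of -0.77, as examples from either side of the range. That of Ndufs7 holds a YY1 match, in capitals, and that of Ndufa6 no exact match to any of the 4 motifs. A link between motifs and differences was not tested.
Ndufs7, chr10:80249199-80249498, plus strand: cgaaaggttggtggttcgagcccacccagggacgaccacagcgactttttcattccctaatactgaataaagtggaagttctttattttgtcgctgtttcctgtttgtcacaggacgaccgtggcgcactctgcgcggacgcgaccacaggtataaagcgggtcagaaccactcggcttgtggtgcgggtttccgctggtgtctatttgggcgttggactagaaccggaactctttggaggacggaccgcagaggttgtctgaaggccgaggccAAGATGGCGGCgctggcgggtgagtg
Ndufa6, chr15:82354242-82354541, minus strand: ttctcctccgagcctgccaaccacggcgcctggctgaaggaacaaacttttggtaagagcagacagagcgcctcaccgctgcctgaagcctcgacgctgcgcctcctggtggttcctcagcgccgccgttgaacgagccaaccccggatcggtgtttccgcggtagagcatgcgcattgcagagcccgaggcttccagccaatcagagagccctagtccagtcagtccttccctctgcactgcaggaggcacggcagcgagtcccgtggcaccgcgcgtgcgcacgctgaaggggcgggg
Their GC contents were 56.3% and 65.0%, and their ratios of observed to expected CpG were 1.03 and 0.855.

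Assembly factors of complex I, which build the enzyme without staying in it, differed less than its subunits. By the names in the file 6 of 18 could be measured, with a median of -0.39 and 1 gene, Ndufaf1 at -1.37, at least 2-fold lower. With current symbols assigned through RefSeq accessions 14 of 18 were measured, 13 of them below 0 and 3 at least 2-fold lower, and the median was -0.46. These 3 were Ndufaf1, Ndufaf5 at -1.39 and Ecsit, which also acts in innate immune signalling, at -1.43. Nubpl, which delivers iron-sulphur clusters to the complex, was higher at 0.25, and Acad9 was at -0.12. The factors were also dimmer: their levels in the standard pool ran from -2.23 in Ndufaf7 to 3.89 in Ecsit. Those of the measured subunits ran from 0.62 in Ndufa3, an average of probes at 5.12 and -3.88, to 7.31 in Ndufa13. Many factors were thus dimmer than the average of every subunit, but levels of different genes also depend on how well their probes bind. The difference between subunits and assembly factors was not tested, and neither was the part of signal level in it.

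The other complexes of the chain stood near complex I. In complex II the median was -1.40, and 3 of 4 genes passed the 2-fold mark, led by Sdhb, its iron-sulphur subunit, at -2.35. In complex III the median was -1.53, with 7 of 7, led by Uqcrfs1, the Rieske iron-sulphur protein, at -2.21. For the ATP synthase it was -1.35, with 14 of 15, from Atp5g1 at -2.27 to Atp5g2 at -0.52, genes that encode the same ring subunit. For the general subunits of cytochrome c oxidase it was -1.24, with 7 of 10, and Cox8a at 0.10 and Cox6a1 at -0.22 were nearest to 0. Enzymes that reduce ubiquinone without complex I, or that handle NADH in other ways, were mixed, with a median of -0.39 over 7 genes. Within them the electron transfer flavoprotein genes Etfb, Etfdh and Etfa, which carry electrons from fat oxidation, were at -1.32, -1.30 and -1.26, whereas the sulphide oxidase gene Sqrdl was at 1.01. For mitochondrial ribosomal proteins, taken by gene name, the median was -0.37, and 3 of 75 genes passed the 2-fold mark. Of the 75 genes 70 lay below 0, where 48.0% of all measured genes did. The differences between these groups and complex I were not tested.

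**Figure D4:**
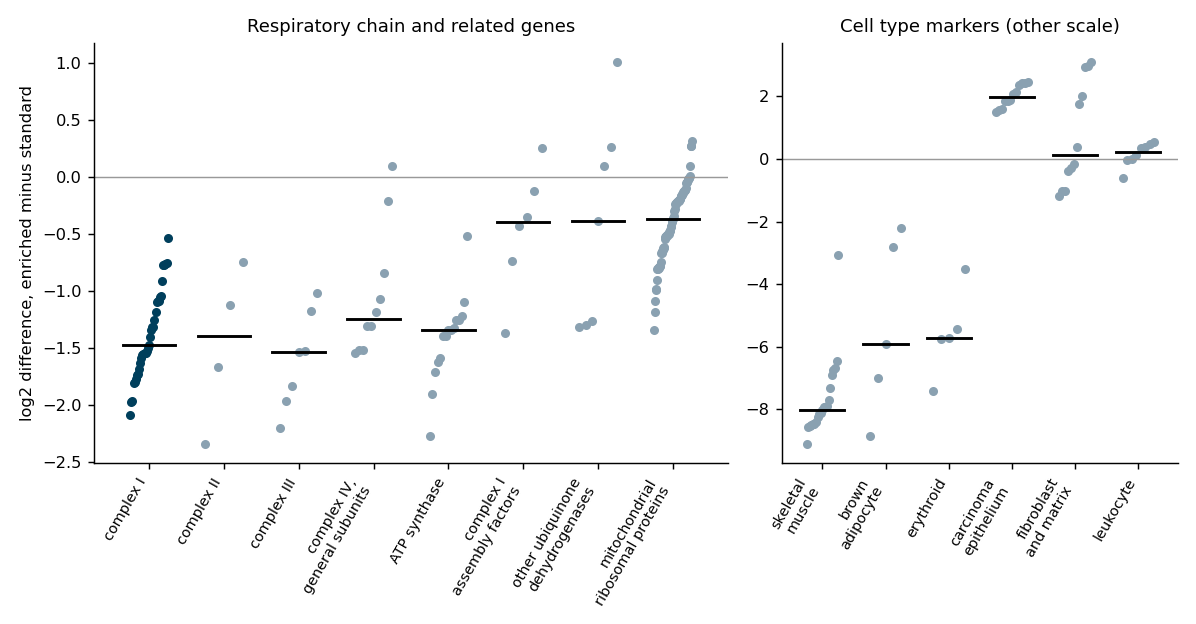
Log2 difference (enriched minus standard pool) of single genes in complex I and related groups (left) and in cell type marker lists (right, on a wider scale), with medians as black bars. Medians of the 5 complexes lie between -1.53 and -1.24, those of the assembly factors and mitochondrial ribosomal proteins at -0.39 and -0.37, and that of the skeletal muscle markers at -8.03.

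Markers of other tissues were also lower in the enriched pool. The 21 skeletal muscle markers all passed the 2-fold mark, with a median of -8.03, and their summed intensity was 5.27% of the total in the standard against 0.109% in the enriched pool. Ckmt2, a creatine kinase of muscle mitochondria, was at a level of 7.03 in the standard against -2.08 in the enriched pool, and Tnni2, a fast troponin, was the closest to 0 at -3.08. Of 7 brown adipocyte markers 5 were measured on both arrays, all past the same mark, with a median of -5.91. They took 0.150% and 0.00214% of the summed intensity. Ucp1, the uncoupling protein, was at -8.86. Cox8b was the brightest of them in the standard pool, at a level of 6.71 against 4.16 for Ucp1. Whether these transcripts came from brown fat or from muscle was not tested. Elovl3 was above background on the standard array only and Adrb3 on the enriched array only. The 5 measured erythroid markers had a median of -5.72. Muscle and brown fat are rich in mitochondria. The part of these tissues in the complex I values was not tested, and in pooled tumour RNA fewer cells of a type and less RNA per cell cannot be told apart. Carcinoma epithelium markers were well above background in both pools, and 12 of 12 measured were at least 2-fold higher in the enriched pool, from Krt7, a simple epithelial keratin, at 1.51 to Tff2, a trefoil peptide, at 2.48. Their median was 1.97. Fibroblast and matrix markers went both ways, with 5 of 12 higher and 3 lower by 2-fold or more, from -1.18 to Col12a1, a collagen, at 3.11. Their median was 0.12, and it was -0.21 over the brighter probes alone. Leukocyte markers had a median of 0.23.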

How the data were processed

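RNA pools of 6 tumours per housing were labelled with Cy3 and hybridised to 1 array each, per the labels' protocols, and both arrays lie on 1 slide by their headers. The submitters' processing notes name Agilent Feature Extraction 10.7.1.1 as the source of the deposited linear intensity of each spot. Its spatial detrending was on and its separate background correction off, per the file headers; detrending alters dim spots most. The authors also deposited a table of log2 values for 30319 probes. It followed log2 of the processed intensity, with r = 0.999553 on the standard and 0.999985 on the enriched array. Its column medians were 8.54 (standard) and 8.56 (enriched), the direction is that of the scanner values, and its scaling and centring are unknown. It served as an alternative.

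Control spots and outlier spots (66 standard, 70 enriched) were left out, log2 intensity was centred on the array's 75th percentile (753 and 984), and probes well above background on both arrays (30298 of 41161) were averaged by gene name. No spot was saturated. Well above background were 77.2% and 77.4% of 43379 spots. Repeated spots had median SDs of 0.05 and 0.06. Calls are differences of at least 2-fold; the number of arrays limits the precision. Normexp (limma 3.58.1, offset 50), other scalings, filters, probe rules, names and module borders were alternatives. Steps were tested on simulated data. Current symbols came from RefSeq accessions on GRCm38.p6 for 22943 probes. Every member may be named, and of other lists the 4 largest and 2 smallest differences. Members and lists were chosen with earlier results of these data known. N module: Ndufv1 to Ndufv3, Ndufs1, Ndufs4, Ndufs6, Ndufa2, Ndufa6, Ndufa7, Ndufa12; Q module: Ndufs3, Ndufs7, Ndufs8, Ndufa5, Ndufa9; P module: the other members but Ndufab1 and Ndufa4. A result on a further gene of the complex is not reported here.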

Additional observations from a re-analysis of the deposited data

How the results depend on the processing

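Over 9 other ways of processing the arrays, all measured subunits stayed below 0, and core stayed below accessory in median. From 25 to 30 members were at least 2-fold lower, where 6.41% to 9.91% of all genes measured in those ways were. Scalings that move all differences alike could not change the order of core and accessory. The N module moved to -1.64 without the subunits next to the module border. With the authors' log2 table the medians were -1.29 for the complex and -1.46, -1.29 and -1.12 for the Q, P and N modules. They were -1.55 for core and -1.14 for accessory subunits. With quantile normalization the Q module was at -1.51. Of the 35 members 23 moved by at least the median SD between probes, 0.18, with the authors' table, and 12 with quantile normalization. The cause was not tested. Over all genes 956 (8.47%) were at least 2-fold lower among the brighter probes alone, where fewer genes are measured. At least 1.5-fold lower were 34 members and 3692 of all genes (18.2%). The median of all genes was -0.07 with normexp background, 0.11 with the authors' table and -0.22 with dim probes kept. With dim probes kept, Ndufs1 was at -1.15. That value averages its bright probe with the opposite-strand probe, whose intensities were 3.5 in the standard and 3.7 in the enriched pool. No paired analysis was possible because each housing had 1 array. No replicate could be left out for the same reason. Among the measured probes of the members, the software error was largest, at 0.23, in the dim probe of Ndufa3. The weaker measured probes of Ndufb8, Ndufab1 and Ndufv3 were well above background on both arrays, with errors of 0.20 to 0.21. Why they differed less than the brightest probes of the same genes was not tested.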
